A study of Mus musculus with 18 samples.

Results

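Day 3 enteroids grown from crypts without MTGR1 were compared with WT day 3 enteroids, gene by gene. All libraries taken 72 h after plating were used, which is 3 WT libraries and 3 libraries labelled Mtgr1-/- out of 18 in the series. Each library came from 1 mouse, and the 6 mice were different animals. Genes with a mean of at least 10 normalised read counts over the 6 libraries were compared, which kept 12782 of the 17612 genes in the day 3 table. Both groups were duodenal crypt cultures from age-matched littermates of 8 to 12 weeks, of both sexes, kept on standard chow. Crypts were embedded in Matrigel, where crypt stem cells form budding epithelial spheres called enteroids, and RNA was taken without any passage in between. The Mtgr1-/- mice lack the gene in every tissue from before birth, so that the crypts had developed without it before they were plated. Both groups went through the same culture, and no other allele, transgene or agent is given for these 6 libraries.

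MTGR1 is the protein of the Cbfa2t2 gene. It binds no DNA by itself. It bridges DNA-binding factors, among them E proteins, zinc finger repressors and the Wnt effector TCF4, to histone deacetylases and other corepressors, and so holds target genes silent. In the duodenum, stem cells at the crypt base give rise to dividing progenitors, which become either absorptive enterocytes or secretory cells. Notch signalling favours the absorptive fate, and cells that escape it turn on Atoh1 and become goblet, Paneth or enteroendocrine cells.

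Cbfa2t2 itself was not lower in the libraries labelled Mtgr1-/-. Its normalised read counts were 869, 774 and 883 in WT libraries 1, 2 and 3 and 892, 976 and 766 in Mtgr1-/- libraries 1, 2 and 3 (log2 difference 0.06, SE 0.11, adjusted p = 0.69). The groups overlapped. A count summed over the whole gene, at 154436481 to 154539356 of chromosome 2 (GRCm38, plus strand), cannot show which exons a knockout allele lacks, so the count checks nothing about the allele, and the groups are named by their labels throughout. Values below are given in the same order, WT libraries 1, 2 and 3 against libraries 1, 2 and 3 labelled Mtgr1-/-, and a difference is always that of the Mtgr1-/- libraries minus WT.

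The libraries held 22904182 to 29661084 reads assigned to genes, recovered from the normalised values. A first principal component with 81.2% of the variance separated the genotypes. The second, with 6.9%, spread Mtgr1-/- library 1 from Mtgr1-/- library 2, and library 2 stood apart from the other 2 in several gene groups named below. WT library 3 and Mtgr1-/- library 1 expressed Xist and the other 4 expressed Y-linked genes, so each genotype held 1 female and 2 male mice. Markers of fibroblasts, muscle and endothelium summed to 0.0117, 0.0116 and 0.0123% of the WT libraries against 0.0109, 0.0131 and 0.0108%. Immune cell markers summed to 0.00146, 0.00153 and 0.00156% of the WT libraries against 0.00155, 0.00134 and 0.00669%, with Mtgr1-/- library 3 the highest, and the leukocyte gene Ptprc read 10.8, 14.3 and 14.5 against 3.41, 7.95 and 129.

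Most tested genes differed between the genotypes. Of 12782 genes, 7545 passed an adjusted p of 0.05 (59.0%, limma with Benjamini-Hochberg adjustment), 3826 of them higher (29.9%) and 3719 lower (29.1%) in the Mtgr1-/- libraries. A change of at least 2-fold was held by 2557 genes (20.0%), with 1418 higher and 1139 lower. Among the largest changes falls outnumbered rises, with 152 genes at least 16-fold lower and 90 at least 16-fold higher. For 8789 genes (68.8%) all 3 Mtgr1-/- values lay on the same side of all 3 WT values. These shares are the background against which each gene group below has to be read. The groups were chosen with earlier results of these data known. A group's distance from these shares is therefore a description and not a test. The Mtgr1-/- libraries carried more counts in all after the authors' scaling, and with every library set to the same total the median gene moved down by 0.20 on the log2 scale. Under that scaling 35.2% of the called genes were higher, against 50.7% under the authors' scaling.

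**Figure D1:**
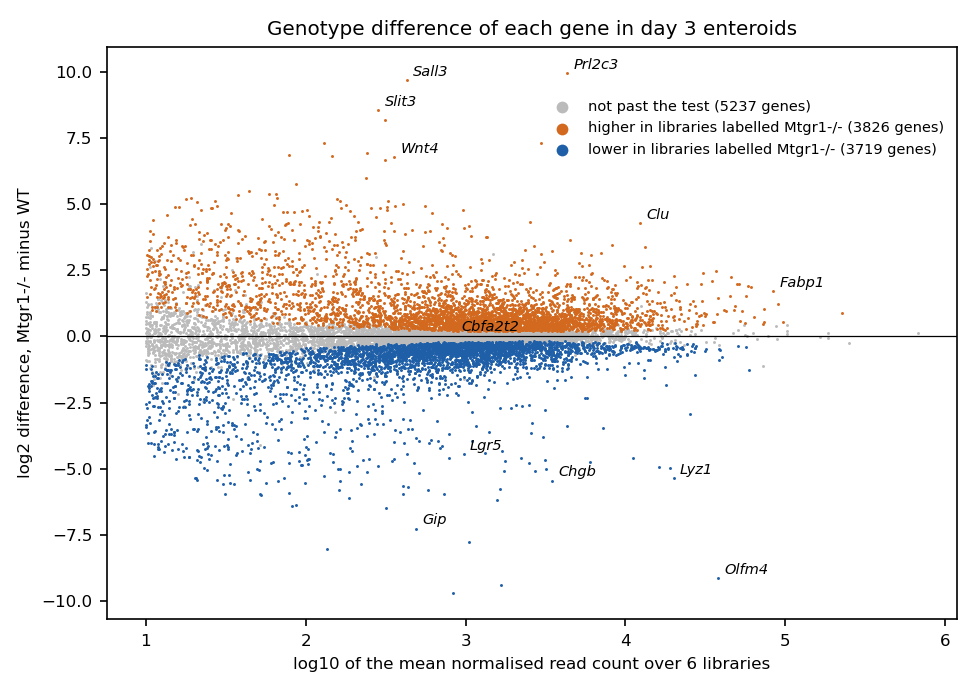
Each point is 1 of 12782 genes, with the log10 of its mean normalised read count on the x axis and its log2 difference between genotypes on the y axis. Orange points were higher and blue points lower in the libraries labelled Mtgr1-/-, and the named genes reach from Olfm4 at -9.14 to Prl2c3 at 9.97.

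Genes of the crypt base columnar stem cell were low in the Mtgr1-/- libraries. Of 28 members tested, 24 fell and none rose, with a median log2 difference of -1.87. Slc14a1, a urea transporter, read 1317, 1119 and 1004 against 20.5, 12.9 and 28.1 (log2 difference -5.79, SE 0.26, adjusted p = 6.3e-06). Aqp4, a water channel, read 3542, 3389.8 and 3168 against 55.8, 149 and 111 (log2 difference -5.09, SE 0.31, adjusted p = 1.4e-05). Dach1, a transcriptional cofactor, held 849, 813 and 738 against 13.7, 13.9 and 16.8 (log2 -5.67, adjusted p = 1.9e-06). Smoc2, a matrix protein of crypt base cells, kept a larger part of its WT level, with 8032, 7843 and 7672 against 943, 485 and 931 (log2 -3.38, adjusted p = 2.4e-05). Groups did not overlap for any of these 4 genes. The 4 members that did not pass the test were Lgr4, Prom1, Cd44 and Rnf43. Bmi1, a Polycomb subunit that has been used as a marker of slowly dividing cells, read 904, 957 and 970.0 against 729, 623 and 743 (log2 -0.44, adjusted p = 0.0055). In these bulk libraries, fewer cells of a type and less RNA per cell cannot be told apart.

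Wnt feedback and target genes fell with them, 17 of 24 tested against 3 that rose. This list shares members with other lists, such as Mmp7 with the Paneth products. Ligands, receptors and secreted regulators were counted in a list of their own. The ligand Wnt3, which Paneth cells make, read 196, 200.4 and 175 against 3.41, 7.95 and 14.6 (log2 difference -4.49, SE 0.42, adjusted p = 9.9e-05). Sfrp5, a secreted Wnt inhibitor, was at or near 0 in the Mtgr1-/- libraries, with 165, 166 and 156 against 1.14, 0 and 2.25. The receptors Ror2, at 274, 322 and 368 against 9.10, 10.9 and 6.74, and Fzd2, at 197, 209 and 183 against 9.10, 2.98 and 10.1, were lower in each Mtgr1-/- library than in any WT library. Wnt4, a ligand that is better known from kidney and gonad, moved the other way, with 3.59, 5.34 and 7.74 against 767, 606 and 757 (log2 difference 6.80, SE 0.26, adjusted p = 4.4e-06). Porcn, the acyltransferase that every Wnt ligand needs for secretion, rose from 99.5, 98.9 and 80.3 to 388, 256 and 321 (log2 1.77, adjusted p = 1.6e-04). Over the 19 ligands, receptors and secreted regulators tested, 9 were lower and 4 higher. Ctnnb1, which encodes beta-catenin, was higher, at 23223, 21619.6 and 22809 against 33644, 35203 and 31466 (log2 0.57, adjusted p = 0.0015).

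Notch pathway genes leaned down, with 13 lower and 4 higher of 27. The ligand Dll4 read 293, 325 and 288 against 42.1, 49.7 and 37.1 (log2 difference -2.79, SE 0.17, adjusted p = 1.4e-05). The receptor Notch1 read 1349, 1268 and 1318 against 643, 338 and 660.2 (log2 -1.32, adjusted p = 0.002), and the Notch target Nrarp read 739, 790.0 and 873 against 226, 195 and 219 (log2 -1.90, adjusted p = 1.4e-05). Hes1, the target that represses Atoh1, was lower as well, at 1695, 1943 and 1660.2 against 1034, 854 and 1068 (log2 -0.84, adjusted p = 4.8e-04). The gamma-secretase subunit gene Ncstn, whose product helps to cut the receptor, was higher, with a log2 difference of 0.41. Among MTG corepressors and their partners, 11 of 18 were lower and 1 was higher, and without WT library 1 the lower ones numbered 7. The other MTG genes were both lower, Cbfa2t3 with 214, 205 and 185 against 113, 90.5 and 92.1 (log2 -1.03, adjusted p = 8.4e-04) and Runx1t1 with 25.99, 18.7 and 31.9 against 0, 0.99 and 0. The E protein gene Tcf3, whose product MTG proteins bind, read 2423, 3001 and 2861 against 1795, 1474 and 2131 (log2 -0.63, adjusted p = 0.0061).

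Transcription factors of the secretory lineage were nearly all low. Of 28 tested, 25 fell, 2 rose and the median log2 difference was -3.71. Atoh1, the gate to all secretory fates but tuft, read 257, 306 and 284 against 10.2, 16.9 and 10.1 (log2 difference -4.43, SE 0.24, adjusted p = 1.0e-05). Spdef, which matures goblet and Paneth cells, read 362, 379 and 357 against 15.9, 24.9 and 28.1 (log2 -3.98, adjusted p = 1.1e-05), and Gfi1, which keeps them from turning enteroendocrine, read 103, 86.4 and 88.1 against 2.28, 8.95 and 10.1 (log2 -3.71, adjusted p = 3.9e-04). The loss ran through each tier, from Neurog3, which commits a progenitor to the enteroendocrine fate, to factors that act after it. Neurog3 read 222, 247 and 294 against 7.96, 1.99 and 8.98 (log2 difference -5.30, SE 0.45, adjusted p = 5.9e-05). Insm1 read 156, 189 and 180.1 against 3.41, 4.97 and 10.1 and Nkx2-2 read 92.3, 94.4 and 112 against 2.28, 2.98 and 1.12, and every Mtgr1-/- library was below every WT library for both. Rfx6 was listed at 0 in Mtgr1-/- libraries 2 and 3, with 114, 101 and 99.7 against 3.41, 0 and 0. The exceptions that rose included Klf4, a factor of goblet cells and of differentiated villus cells, with 439, 471 and 422 against 950.0, 1453 and 1300.2 (log2 1.45, adjusted p = 1.7e-04).

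Hormone and granule genes of enteroendocrine cells fell in 21 of 25 tested, and the other 4 rose. The falls held every hormone tested. Gip, the incretin of duodenal K cells, read 1014, 1024 and 861 against 9.10, 22.9 and 0 (log2 difference -7.28, adjusted p = 5.3e-04), and its difference was -8.24 without Mtgr1-/- library 2 and -5.96 without Mtgr1-/- library 3. Somatostatin (Sst) read 147, 195 and 172 against 0, 0.99 and 3.37, ghrelin (Ghrl) read 357, 399.9 and 346 against 1.14, 9.94 and 5.61 and cholecystokinin (Cck) read 929, 987 and 859 against 21.6, 35.8 and 42.7. All 3 were lower in each Mtgr1-/- library than in any WT library. Secretin (Sct) fell least, with 108, 124 and 117 against 55.8, 59.7 and 55.02 (log2 difference -1.02, SE 0.16, adjusted p = 0.0011). The granins Chga and Chgb package hormones in dense core granules. Chgb read 6799, 6546 and 7095 against 65.99, 229.7 and 243, and its log2 difference of -5.45 was -4.84 without Mtgr1-/- library 1. The 4 that rose were Cpe, Ddc, Slc18a1 and Pam, which encode enzymes and a transporter. Which cells held their RNA was not tested. Cpe, the carboxypeptidase that trims prohormones, read 294, 315 and 286 against 2076, 1747 and 1692 (log2 difference 2.62, SE 0.11, adjusted p = 4.4e-06). Ddc, which makes dopamine and serotonin from their amino acid precursors and is also made by enterocytes, read 3263, 3156 and 3602 against 9591, 10027 and 7935 (log2 1.45, adjusted p = 3.0e-05).

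Goblet cell products were lower in 23 of 29 tested and higher in 2. The trefoil peptide Tff3 read 4669, 5168 and 4402 against 262, 574 and 351 (log2 difference -3.65, SE 0.25, adjusted p = 2.2e-05). Fcgbp, a mucus protein, read 12465, 12894 and 14310.4 against 844, 2015 and 963 (log2 -3.48, adjusted p = 5.1e-05). Spink4, a protease inhibitor of goblet granules, read 6377, 6912 and 5241 against 84.2, 398 and 194 (log2 -5.03, adjusted p = 9.1e-05). In all 3 the highest of the Mtgr1-/- libraries was library 2. Clca1, the metalloprotease that unfolds mucus, kept more, at 2564, 1764 and 2089 against 266, 828 and 367 (log2 -2.29, adjusted p = 0.0012). The chemokine gene Ccl9 read 739, 701 and 612 against 13.7, 42.8 and 31.4. The larger of the 2 rises was that of Guca2a, with 732, 792 and 681 against 2702, 3232 and 2413 (log2 difference 1.91, SE 0.12, adjusted p = 1.6e-05), and Guca2b, which is not in the list and encodes its partner peptide, read 1768, 1598 and 1748 against 5766, 9161 and 5686 (log2 1.97, adjusted p = 7.3e-05). Guanylins are peptides that switch on fluid secretion, and villus enterocytes make them as well as goblet cells.

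Alpha-defensins, the antimicrobial peptides of Paneth granules, fell in 23 of 23 tested, with a median log2 difference of -4.69. Their summed counts were 0.483, 0.546 and 0.426% of the WT libraries against 0.00522, 0.0468 and 0.0149%. Mtgr1-/- library 2 held the largest share of its group and was still below every WT library. Defa32 had no read in any Mtgr1-/- library against 269.8, 348 and 200.4 in WT, which makes it at least 83.8-fold lower with a floor of 3 reads per library. Single defensin genes are uncertain, since the 50-base reads cannot tell close copies apart. All 376 different stretches of 50 bases in the Defa32 transcripts also occur in transcripts of other genes. Paneth products outside the family fell in 16 of 23, rose in 4 and did not pass in 3. Lysozyme (Lyz1) read 42581, 44225 and 29609 against 421, 2549 and 747 and its log2 difference of -5.36 was -6.09 without Mtgr1-/- library 2. Itln1, a lectin, read 21747, 24277 and 17595 against 485, 1643 and 825 (log2 -4.59, adjusted p = 5.1e-05), and Ang4, an antimicrobial ribonuclease, read 6596, 5777 and 4664 against 207, 798 and 387 (log2 -3.81, adjusted p = 1.9e-04). The matrix protease Mmp7, which activates defensins, read 2210.2, 2236 and 1894 against 144, 277 and 199 (log2 -3.39, adjusted p = 1.7e-05). The members that rose were Lbp, Guca2b, the lipase gene Pnliprp2, at 778, 625 and 649 against 1273, 2014 and 1285 (log2 1.13, adjusted p = 0.0013), and the lectin gene Reg3b, which read 67826 in Mtgr1-/- library 2. Together the list took 0.397, 0.403 and 0.333% of the WT libraries against 0.0672, 0.323 and 0.0701%. Most of the sum in Mtgr1-/- library 2 was Reg3b, while Lyz1, Itln1, Ang4 and Mmp7 were below every WT library there.

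The promoters of Chgb, Defa23, Olfm4 and Prl2c3 stand for the enteroendocrine, Paneth, stem cell and prolactin genes, each with a large change. Olfm4, a secreted glycoprotein of crypt base cells, read 83227, 76332 and 67570.4 against 102, 112 and 203 (log2 difference -9.14, SE 0.23, adjusted p = 1.9e-06), and Defa23 read 11101, 12411 and 10379 against 99.0, 1844 and 394. Each runs from 250 bases before to 50 bases after the RefSeq transcription start on GRCm38.p6, and capitals mark the E-box letters CAGCTG or CACCTG, searched on both strands so that the latter also appears as CAGGTG, which are bound by dimers of E proteins with factors such as ATOH1 and NEUROG3.
Chgb, chr2:132781392-132781691, plus strand: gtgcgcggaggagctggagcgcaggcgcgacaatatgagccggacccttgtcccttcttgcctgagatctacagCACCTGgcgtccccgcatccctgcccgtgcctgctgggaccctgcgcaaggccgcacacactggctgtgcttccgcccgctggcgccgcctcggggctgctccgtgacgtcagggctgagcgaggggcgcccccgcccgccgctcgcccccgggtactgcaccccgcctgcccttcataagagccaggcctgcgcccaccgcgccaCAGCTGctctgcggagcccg
Defa23, chr8:21054790-21055089, plus strand: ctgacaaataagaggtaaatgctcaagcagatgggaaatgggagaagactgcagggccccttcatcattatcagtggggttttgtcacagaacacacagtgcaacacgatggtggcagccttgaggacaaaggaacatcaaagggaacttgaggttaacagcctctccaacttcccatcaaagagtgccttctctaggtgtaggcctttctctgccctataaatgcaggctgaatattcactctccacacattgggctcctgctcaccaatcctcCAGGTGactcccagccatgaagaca
Olfm4, chr14:80000052-80000351, plus strand: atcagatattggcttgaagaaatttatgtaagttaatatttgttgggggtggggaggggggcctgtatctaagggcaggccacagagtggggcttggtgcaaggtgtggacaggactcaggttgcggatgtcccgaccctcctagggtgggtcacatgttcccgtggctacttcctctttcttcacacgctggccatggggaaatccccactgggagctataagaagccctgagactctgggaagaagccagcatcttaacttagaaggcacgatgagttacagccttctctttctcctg
Prl2c3, chr13:12800030-12800329, minus strand: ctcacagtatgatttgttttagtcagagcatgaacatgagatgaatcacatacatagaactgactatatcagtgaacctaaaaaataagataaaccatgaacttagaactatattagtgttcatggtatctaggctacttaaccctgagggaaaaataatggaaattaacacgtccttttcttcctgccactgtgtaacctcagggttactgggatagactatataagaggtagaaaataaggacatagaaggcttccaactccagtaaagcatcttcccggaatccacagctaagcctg
At least 1 of these words stood in 33.0% of all 32851 promoters. It stood in 15 of 33 promoters of the enteroendocrine list (45.5%), in 10 of 29 of the secretory factors (34.5%) and in 11 of 33 of the fat absorption genes (33.3%). All 14 defensin promoters in the table held one, and since these genes are close copies of each other the 14 are not separate cases. The Olfm4 and Prl2c3 windows held none. A match is a string of letters, and no binding was measured.

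Tuft cell genes, which mark the chemosensory cells of the epithelium, moved less than the other secretory groups. Of 27 tested, 11 were lower, 2 were higher and 14 did not pass the test, with a median log2 difference of -0.54. Pou2f3, the master factor of tuft cells, read 43.9, 72.1 and 60.99 against 15.9, 16.9 and 20.2 (log2 difference -1.66, SE 0.27, adjusted p = 0.0013), and Dclk1, their best known marker, read 212, 168 and 163 against 86.5, 92.5 and 71.9 (log2 -1.10, adjusted p = 0.0012). Hpgds, a prostaglandin D synthase, was higher with 36.7, 34.7 and 33.9 against 188, 88.5 and 165 (log2 1.97, adjusted p = 7.8e-04).

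**Figure D2:**
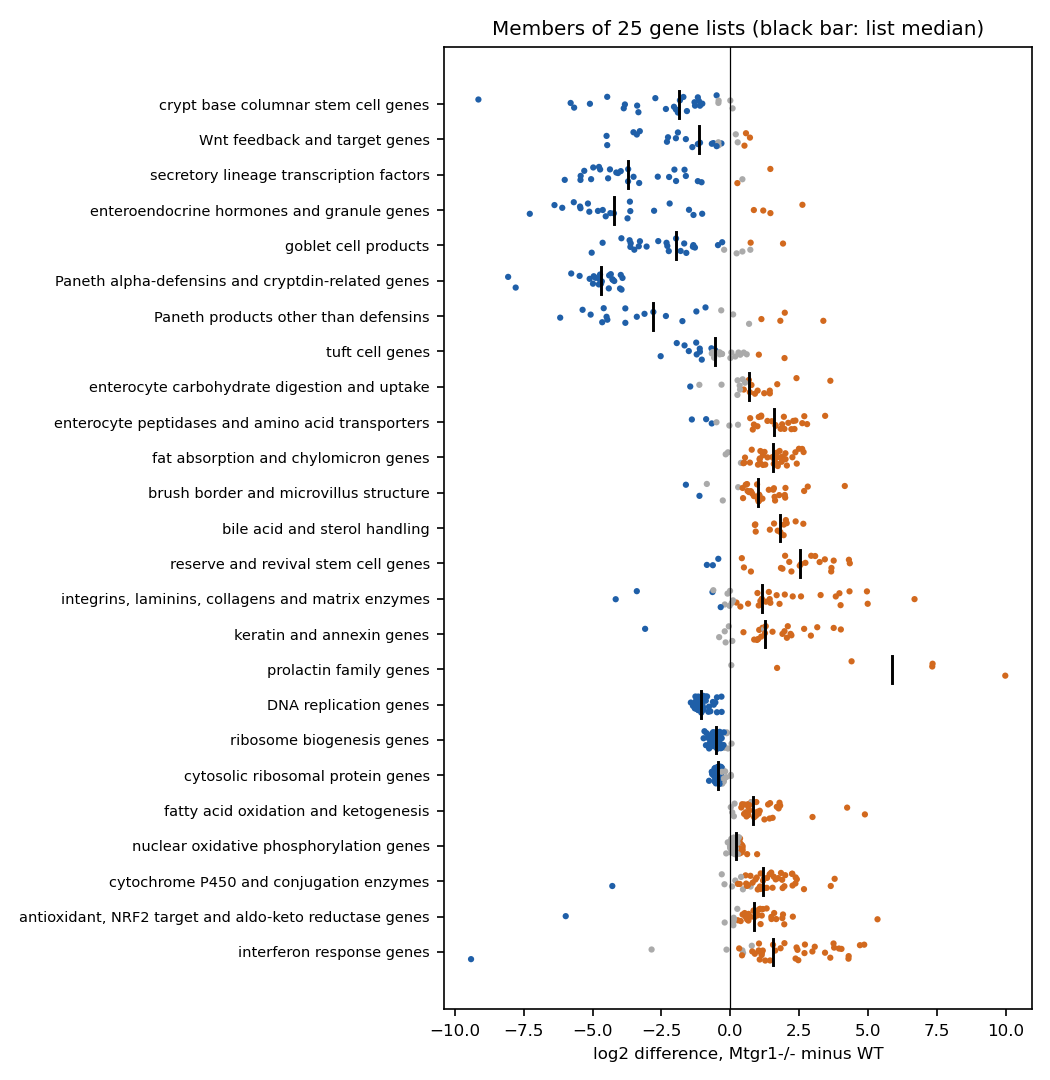
Each point is the log2 difference (x axis) of 1 gene of 25 gene lists (y axis), orange where it was higher and blue where lower in the libraries labelled Mtgr1-/-, grey where it did not pass, and the black bar is the list median. The secretory lists sit left of 0, with medians of -3.71 for transcription factors and -4.69 for defensins, and the enterocyte lists sit right of it, with 1.55 for fat absorption.

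Genes of the mature enterocyte were high. Fat absorption and chylomicron genes rose in 35 of 38 tested with no fall, against a background of 29.9% higher, and their median log2 difference was 1.55. The apolipoproteins of chylomicrons rose in step. Apoa1 read 10253, 9354 and 12049 against 45596, 97087 and 45995 (log2 difference 2.49, SE 0.28, adjusted p = 2.2e-04), and Apoa4 read 10039, 9218 and 9376 against 45212, 66716 and 43123 (log2 difference 2.41, SE 0.16, adjusted p = 2.4e-05). Fabp1, which carries fatty acids through the cytosol, read 36659, 37678 and 37757 against 96510.4, 197694 and 97611 (log2 1.72, adjusted p = 0.001), and the list as a whole took 0.815, 0.776 and 0.828% of the WT libraries against 1.95, 2.88 and 1.91%. Mtgr1-/- library 2 was the highest for all 3 genes. Without that library the count was 36 of 38. Cidec, which fuses lipid droplets, rose from 139.8, 136 and 167 to 801, 1036 and 881 (log2 2.61, adjusted p = 1.0e-05).

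Peptidases and amino acid transporters rose in 24 of 30 tested and fell in 3. Anpep, aminopeptidase N of the brush border, read 6528, 6369.9 and 7514 against 26854, 34911 and 38409 (log2 difference 2.28, SE 0.14, adjusted p = 1.6e-05). The peptide transporter Slc15a1 read 566, 474 and 858 against 3065, 5587 and 3065 (log2 2.61, adjusted p = 1.8e-04). The peptidase Ace read 1162, 922 and 1686 against 6789, 14239.8 and 6128 (log2 2.78, adjusted p = 2.9e-04). Ada, adenosine deaminase, rose most in this group, with 454, 416 and 467 against 5494, 3592 and 5734 (log2 difference 3.44, SE 0.17, adjusted p = 7.8e-06). The members that fell were carriers of single amino acids. Slc1a5, a glutamine carrier, read 3306, 3400.5 and 3174 against 2169.7, 1262 and 2099 (log2 -0.88, adjusted p = 0.005), Slc38a1 read 4462, 3738 and 3932 against 2912, 2013 and 2749.8 (log2 -0.67, adjusted p = 0.0045) and the glutamate carrier Slc1a1 read 639, 730.3 and 736 against 271, 235 and 294 (log2 -1.40, adjusted p = 6.6e-05).

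Genes of carbohydrate digestion were mixed. Of 21 tested, 12 were higher, 1 was lower and 8 did not pass. Lactase (Lct) read 1543, 1019.8 and 1733 against 5053, 4736 and 3929 (log2 difference 1.70, SE 0.19, adjusted p = 2.3e-04). The glucose carriers of the apical and basal membrane rose, Slc5a1 with 28369, 23803 and 29079 against 45075, 75039.8 and 45549 (log2 0.99, adjusted p = 0.004) and Slc2a2 with 3746, 3237 and 3837 against 7626, 13462 and 8913 (log2 1.43, adjusted p = 5.3e-04). Sucrase-isomaltase (Sis) did not pass the test, and its 3 Mtgr1-/- values were spread widely, with 96759, 82711 and 100402 against 23094, 99100.3 and 33900.4 (log2 difference -1.12, adjusted p = 0.064). Mtgr1-/- library 2 lay within the WT range and libraries 1 and 3 below it, and without library 2 the difference was -1.73 with an adjusted p of 0.00013. The glucose-making enzyme Pck1 rose from 13.4, 17.8 and 12.6 to 208, 243 and 136 (log2 3.63, adjusted p = 3.4e-05), and its mitochondrial relative Pck2 was the member that fell, from 1854, 2008 and 1741 to 814, 406 and 951 (log2 -1.45, adjusted p = 0.0027).

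The brush border itself, the carpet of microvilli on the enterocyte surface, followed. Of 36 structural and surface genes, 30 rose and 2 fell. Alpi, intestinal alkaline phosphatase, read 13189, 10868 and 11879.7 against 44873, 52362 and 45398 (log2 difference 1.99, SE 0.11, adjusted p = 1.1e-05). The protocadherins Cdhr2 and Cdhr5, which link microvilli tip to tip, had log2 differences of 1.77 and 1.60. Krt20, the keratin of villus cells, read 2439, 2366 and 3046 against 14146, 20725 and 15699 (log2 2.68, adjusted p = 1.3e-05), and Muc3, a membrane mucin, read 825, 607 and 877 against 5622, 6628 and 4058 (log2 2.81, adjusted p = 2.7e-05). Tmigd1, an adhesion protein of the brush border, rose from 5.38, 8.02 and 21.3 to 169.5, 338 and 124.

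All 13 bile acid and sterol handling genes tested were higher, though several belong to the ileum. Nr0b2, the nuclear receptor SHP that answers bile acids, read 17.9, 11.6 and 26.1 against 106, 115 and 127 (log2 difference 2.65, SE 0.30, adjusted p = 2.3e-04). The ileal uptake carrier Slc10a2 read 39.4, 33.8 and 30.98 against 156, 164 and 121 (log2 2.04, adjusted p = 1.2e-04). Fabp6, the ileal bile acid binder, had a mean under 10 and was not tested, with 1.79, 6.23 and 9.68 against 0, 1.99 and 0. Of the mineral and vitamin genes 25 of 30 were higher and 0 lower. Ferroportin (Slc40a1), the iron exporter, read 565, 561 and 691 against 4899, 4770.1 and 6273 (log2 difference 3.13, SE 0.13, adjusted p = 4.7e-06), while the importer Slc11a2 read 4576, 3435 and 2764 against 2956, 4007 and 4659.7 and overlapped (log2 0.11, adjusted p = 0.66). Rbp2, which binds retinol in the enterocyte, read 12060.3, 12956 and 13267 against 43340.0, 77968 and 48686 (log2 2.10, adjusted p = 1.1e-04).

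Ion and water transport genes went both ways. Of 35 tested, 21 were higher (60%, against 29.9% of all genes) and 7 lower (20%, against 29.1%). Slc12a2, the basolateral chloride loader of crypt cells, fell from 31287, 24941 and 26712 to 10818, 5112 and 8393 (log2 -1.83, adjusted p = 5.3e-04), and Aqp1 fell from 3209.6, 4073 and 3239 to 771, 314 and 807 (log2 -2.58, adjusted p = 4.1e-04). Slc9a3, the sodium proton exchanger of villus cells, rose from 3547, 3058 and 2878 to 4774, 8431 and 6588 (log2 1.03, adjusted p = 0.0023). Clca4a read 148, 77.5 and 102 against 1800.0, 1601 and 2118 (log2 4.10, adjusted p = 1.0e-05), with 37.1% of its 50-base stretches shared with other genes, and Car2, carbonic anhydrase 2, read 90.5, 87.3 and 145 against 1297, 1259 and 1219 (log2 3.57, adjusted p = 1.0e-05). The chloride channel gene Cftr read 6972, 6154 and 6577 against 6184, 5683 and 6967 and did not pass (log2 -0.07, adjusted p = 0.56).

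Regional identity factors were higher in 21 of 33 and lower in 4, with a median log2 difference of 0.50. The enterocyte factors Cdx2 and Hnf4a, which hold intestinal identity, read 3572, 4244 and 4420.0 against 4007, 4412 and 4953 and 24797, 25507 and 28749.5 against 27175, 27244 and 30580.2 and did not pass, with adjusted p of 0.35 and 0.41. Hnf4g rose from 4171, 3638 and 4556 to 6299.8, 11264 and 7466 (log2 0.98, adjusted p = 0.0036). Creb3l3, a factor of lipid genes in enterocytes, read 2142, 2329.9 and 2300.0 against 7303, 12603 and 8877 (log2 difference 2.05, SE 0.18, adjusted p = 6.5e-05), and Maf, which acts in villus tip cells, read 346, 287 and 387 against 1198, 1638 and 1180.1 (log2 1.97, adjusted p = 5.1e-05). Prdm1, known from the fetal gut, read 35.9, 28.5 and 23.2 against 89.9, 83.5 and 108 (log2 1.66, adjusted p = 6.5e-04).

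Genes of the injured or fetal epithelium were high as well. Of 23 reserve and revival stem cell genes, 20 rose, 3 fell and the median log2 difference was 2.52. Clusterin (Clu), the marker of revival stem cells that appear after damage, read 1358, 916 and 1279.7 against 30995, 20413 and 19317 (log2 difference 4.30, SE 0.21, adjusted p = 7.0e-06). Il1rn, the interleukin 1 receptor antagonist, read 276, 189 and 257 against 5759, 4402 and 4376 (log2 difference 4.33, SE 0.17, adjusted p = 4.4e-06). Anxa1 read 250.1, 126 and 192 against 2897, 2385 and 2152 (log2 3.75, adjusted p = 1.6e-05) and Msln, mesothelin, read 845, 395 and 802 against 9216, 9782 and 6118 (log2 3.67, adjusted p = 4.9e-05). The groups were apart by several fold for all 4 genes, and Mtgr1-/- library 2 did not stand out in them. The 3 members that fell were Bmi1, Hopx and Mif, the last of which encodes a cytokine. The list pools reserve and revival genes, so its count does not describe reserve genes alone. Besides Clu, the authors name Bmi1, Hopx, Lrig1 and Tert as markers of stem cells that divide less. Of these Bmi1 (log2 -0.44), Hopx (log2 -0.64) and Lrig1 (log2 -1.30) were lower and Tert (log2 0.49, adjusted p = 0.018) was higher.

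**Figure D3:**
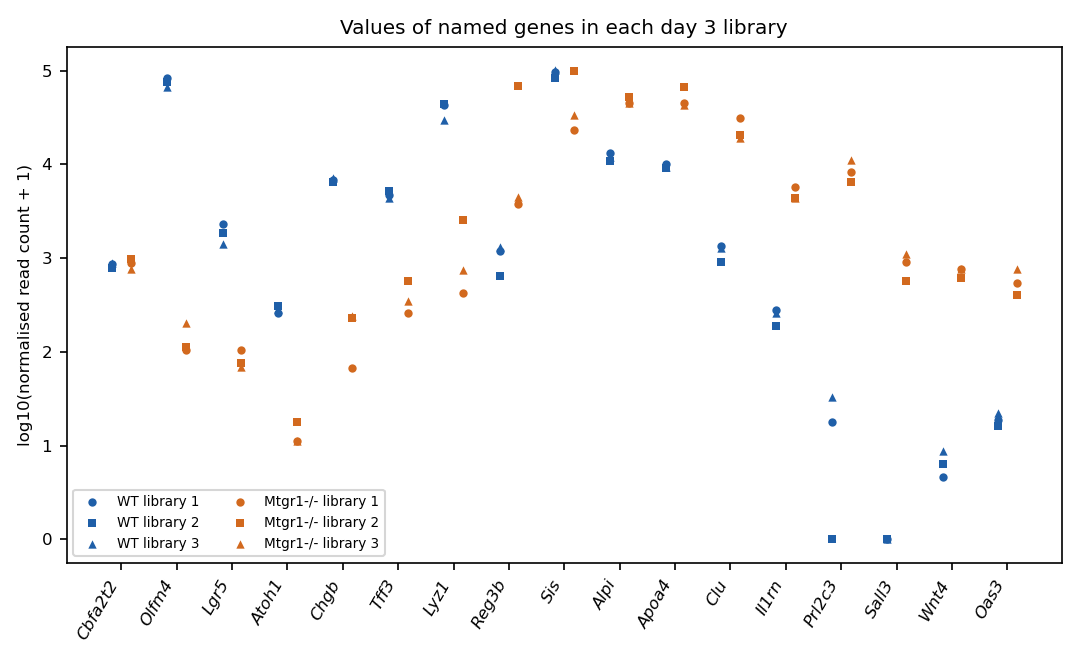
Each point is the value of 1 gene in 1 library, as log10 of the normalised read count plus 1 (y axis), with WT in blue, libraries labelled Mtgr1-/- in orange and the library number by shape. Cbfa2t2 overlaps between the genotypes, Olfm4 to Lyz1 are lower in every orange point, and Alpi to Oas3 are higher in every orange point, while Reg3b and Sis are spread by Mtgr1-/- library 2.

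Placental prolactin genes were high in the Mtgr1-/- libraries and low in WT. Prl2c3 and Prl2c2 encode proliferins, growth factors of the trophoblast that cultured mouse cells can also release. Prl2c3 (chromosome 13) read 17.03, 0 and 31.9 against 8373, 6461 and 11164, and its log2 difference of 9.97 was 8.44 without WT library 2 and 10.96 without WT library 3. Prl2c2 read 47.5, 15.1 and 56.1 against 6846, 4199 and 6566 (log2 difference 7.34, SE 0.44, adjusted p = 1.4e-05) and Prl2c5 read 0, 0 and 2.90 against 323, 178 and 276. The split among the 3 is uncertain, since 83.3% of the different 50-base stretches of Prl2c2 transcripts and 59.99% of those of Prl2c3 also occur in other genes. Of 6 family genes tested 5 rose. The receptor gene Prlr, which held most of the family's counts in WT, read 1918, 1608 and 1787 against 1504, 2197 and 1794 and did not pass (log2 0.04, adjusted p = 0.84).

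Matrix and adhesion genes were higher in 24 of 35 and lower in 4. Basement membrane genes led. Lama3, a laminin chain, read 46.6, 22.3 and 35.8 against 1255, 979 and 988 (log2 difference 4.96, SE 0.25, adjusted p = 9.5e-06) and Col18a1 read 17.03, 6.23 and 8.71 against 427, 264 and 351 (log2 4.98, adjusted p = 2.7e-05). Fibronectin (Fn1) read 31.4, 24.9 and 8.71 against 465, 401 and 348 (log2 4.32, adjusted p = 1.0e-04). Nid1, which ties laminin to collagen, read 8.07, 0 and 21.3 against 453, 798 and 602, and its difference of 6.68 was 5.41 without WT library 2 and 7.64 without WT library 3. Hspg2, which encodes the basement membrane proteoglycan perlecan, went the other way with 1432, 1217 and 1417 against 78.5, 67.6 and 78.6 (log2 difference -4.16, SE 0.12, adjusted p = 1.9e-06). The integrin Itgb4, which anchors hemidesmosomes, read 2091, 2322 and 2369.7 against 5121, 5064 and 4792 (log2 1.14, adjusted p = 2.4e-05), and its partner Itga6 read 8206, 7466 and 8484 against 8367, 7482 and 7851 and did not pass (log2 -0.03, adjusted p = 0.8). The defining fibroblast marker Col1a1 was at or near 0, with 0.9, 1.78 and 0.97 against 0, 0 and 4.49.

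Keratins and annexins rose in 21 of 28 and fell in 1. The simple epithelial pair Krt8 and Krt18 read 43723, 48964 and 50975 against 97787, 100098 and 98254 (log2 1.05, adjusted p = 2.7e-04) and 10344, 9932 and 9493 against 22105, 18205 and 18186 (log2 0.97, adjusted p = 1.7e-04). Anxa8 read 42.1, 18.7 and 78.4 against 687, 844 and 483 (log2 4.01, adjusted p = 2.4e-04), Anxa5 read 243, 243 and 395 against 2479, 2264 and 1823 (log2 2.92, adjusted p = 2.5e-05) and S100a6 read 1561, 877 and 1956 against 13611, 14071 and 9859.5 (log2 3.15, adjusted p = 6.8e-05). Of claudin and junction genes 24 of 31 were higher and 1 lower. Cldn4 rose from 991, 1068 and 729 to 4003, 3121 and 3717 (log2 1.97, adjusted p = 4.2e-05), while Cldn2, the pore claudin of crypts, fell from 9478, 8718 and 8566 to 7604, 6176 and 6848 (log2 -0.38, adjusted p = 0.01). Among genes of stomach or colon epithelium, 16 of 22 were higher and 5 lower. The falls included Gkn3, with 409.6, 443 and 365 against 45.5, 31.8 and 41.5 (log2 -3.33, adjusted p = 1.0e-05). Muc4 fell too, with 2273, 1863 and 1636 against 256, 329 and 221 (log2 -2.84, adjusted p = 1.4e-05). Ctse, cathepsin E of gastric surface cells, read 25.1, 15.1 and 26.1 against 897, 582 and 622 (log2 difference 4.93, SE 0.25, adjusted p = 9.5e-06) and Vsig1, a gastric junction protein, read 25.99, 9.80 and 22.3 against 355, 312 and 192 (log2 3.88, adjusted p = 1.2e-04). The gastric mucous neck genes Tff2 and Muc6 were near 0 in both genotypes, with 2.69, 0 and 0.97 against 7.96, 0.99 and 2.25 and 0, 0.89 and 0 against 1.14, 0 and 0.

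Growth factor pathways moved both ways. In the BMP and TGF-beta list 12 of 25 were higher (48%, against 29.9% of all genes) and 6 lower (24%, against 29.1%). Bmp2, a villus ligand, read 74.4, 76.6 and 81.3 against 397, 366 and 518 (log2 difference 2.43, SE 0.16, adjusted p = 2.0e-05), Bmp8b read 108, 63.2 and 107 against 1278, 836 and 850.0 (log2 3.41, adjusted p = 3.0e-05) and Bmp7 fell with 447, 533 and 476 against 62.6, 37.8 and 67.4 (log2 -3.13, adjusted p = 2.8e-05). The BMP targets Id1 and Id2 had log2 differences of 0.78 and 1.07, and the inhibitory Smad7 had 1.54. In the list of EGF receptors, their ligands and downstream genes 10 of 19 were higher (52.6%) and 6 lower (31.6%, near the share of all genes). The receptor genes Egfr and Erbb3 had log2 differences of 0.47 and 0.78. The ligands Ereg and Areg read 97.7, 64.1 and 78.4 against 331, 413 and 230.2 (log2 1.99, adjusted p = 3.4e-04) and 447, 348 and 311 against 1187, 1345 and 1390.1 (log2 1.84, adjusted p = 4.1e-05). Lrig1, which restrains the receptors and marks stem cells, read 5949, 5572 and 5494 against 2412, 2012 and 2519.6 (log2 difference -1.30, SE 0.10, adjusted p = 3.6e-05). The ERK targets moved apart, with Dusp6 at 549, 399 and 509 against 1852, 1916 and 1739 (log2 1.93, adjusted p = 1.9e-05) and Etv4 at 895, 1019 and 927 against 476, 285 and 432 (log2 -1.28, adjusted p = 7.1e-04). Immediate early genes were higher in 19 of 28, among them Fos at 283, 307 and 382 against 1021, 1157 and 1328 (log2 1.85, adjusted p = 4.1e-05) and Fosl1 at 21.5, 26.7 and 27.1 against 182, 114 and 127 (log2 2.42, adjusted p = 1.1e-04), while Jun was lower at 1411, 1603 and 1357 against 715, 691 and 869 (log2 -0.95, adjusted p = 3.2e-04).

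DNA replication genes and nearly all mitosis genes were lower. All 48 DNA replication genes fell, with log2 differences from -1.43 to -0.32, and 56 of 59 mitosis genes fell. Pola1, the catalytic subunit of polymerase alpha, read 1539.8, 1442 and 1569 against 754, 425 and 648 (log2 difference -1.36, SE 0.19, adjusted p = 6.7e-04), and Stmn1, which frees tubulin, read 5961, 6850.0 and 6140.2 against 2509.9, 1399 and 2260.2 (log2 difference -1.66, SE 0.20, adjusted p = 3.0e-04). The median log2 difference was -1.06 for replication and -0.88 for mitosis genes. Both were closer to 0 than in the stem cell list and the secretory lists other than tuft, where it was -0.54. Mtgr1-/- library 2 was the lowest for both genes. Of 32 genes of G1 control 15 were lower (46.9%), 9 higher (28.1%) and 8 did not pass. Of all genes 29.1% were lower and 29.9% higher, so the higher share was near the background. The G1 kinases Cdk4 and Cdk6 fell, with Cdk4 at 6909, 7932 and 7194 against 4286, 2717 and 4415 (log2 -0.98, adjusted p = 0.0022) and Cdk6 at 3152, 2774 and 2536 against 1579, 1126 and 1096 (log2 -1.17, adjusted p = 4.4e-04), and the antiproliferative Tob1 rose from 2055, 2045 and 2309.7 to 4179, 5907 and 4830.4 (log2 1.21, adjusted p = 1.7e-04). Inhibitors of these and other cyclin-dependent kinases rose, among them Cdkn1a at 1679.6, 1594 and 1499 against 3042, 3999.6 and 3605 (log2 1.15, adjusted p = 1.0e-04) and Cdkn2b at 552, 649 and 757 against 1504, 2773 and 2163 (log2 1.68, adjusted p = 4.1e-04).

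Ribosome genes fell by a smaller and even amount. Of 60 ribosome biogenesis genes 54 fell and of 82 cytosolic ribosomal protein genes 69 fell, with no rise in either and medians of -0.53 and -0.45. Nucleolin (Ncl) read 29065, 29304 and 31804 against 20500.4, 15554 and 19663 (log2 -0.70, adjusted p = 0.0019) and Rps6 read 24333, 28177 and 25791 against 16482, 15057 and 17522 (log2 -0.67, adjusted p = 9.4e-04). Ribosomal protein genes took 5.51, 6.42 and 5.84% of the WT libraries against 4.05, 3.21 and 4.2%. Of 75 mitochondrial ribosomal protein genes 26 were lower (34.7%, against 29.1% of all genes), 4 were higher and 45 did not pass. The count of lower ones was 12 without WT library 2 and 13 without WT library 3.

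**Figure D4:**
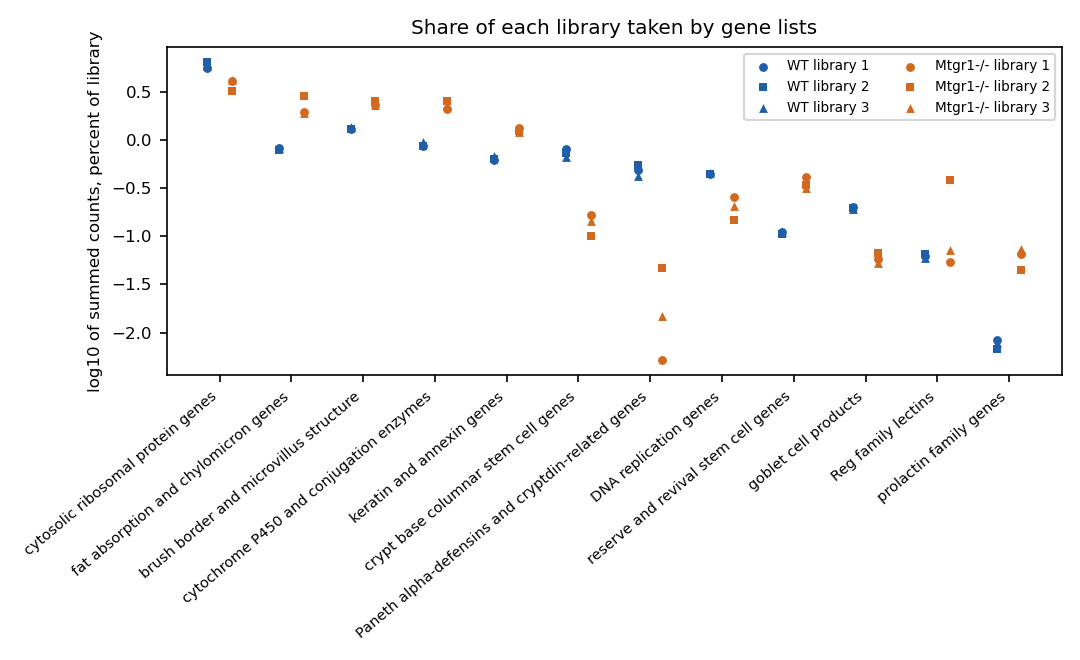
Each point is the log10 of the summed normalised counts of 1 gene list in percent of 1 library (y axis), WT in blue and libraries labelled Mtgr1-/- in orange, with the library number by shape. Defensins range from 0.426 to 0.547% in WT and from 0.00522 to 0.0468% in the Mtgr1-/- libraries, and the Reg lectins stand out in Mtgr1-/- library 2 at 0.379%. The prolactin family sum includes the receptor gene Prlr.

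Most fatty acid oxidation genes rose. Of 36 oxidation and ketogenesis genes 31 were higher and 0 lower, with a median of 0.82. Cpt1a, the gate of fatty acids into mitochondria, read 3342, 3295 and 3546 against 5601, 7303 and 6612 (log2 0.93, adjusted p = 2.3e-04). Nuclear genes of oxidative phosphorylation mostly did not pass the test. Of 78, 20 were higher (25.6%, against 29.9% of all genes) and 0 lower (against 29.1%). Their median of 0.19 became -0.01 with every library set to the same total. The count of higher ones was 7 without WT library 1, 13 and 10 without WT libraries 2 and 3, and 42 and 11 without Mtgr1-/- libraries 1 and 3. In the citric acid cycle list 15 of 34 were higher (44.1%) and 5 lower (14.7%), which became 13 and 14 with every library set to the same total. Ogdh read 9233, 9101 and 10039 against 14809, 20056 and 15901 (log2 0.83, adjusted p = 8.4e-04), and Tfam, which maintains mitochondrial DNA, fell with 2203, 2257 and 2296 against 1329, 1284 and 1352 (log2 -0.77, adjusted p = 8.4e-05).

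Glycolysis genes were higher in 15 of 26, a count of 9 without WT library 3. The hexokinases moved apart, with Hk1 at 341, 271 and 338 against 877, 819 and 711 (log2 1.34, adjusted p = 1.1e-04) and Hk2 at 1878, 1474 and 1541 against 755, 850.0 and 753 (log2 -1.05, adjusted p = 1.7e-04). In cholesterol and fatty acid synthesis 15 of 40 were higher (37.5%, against 29.9% of all genes) and 9 lower (22.5%, against 29.1%). After quantile normalisation these numbered 11 and 12. Desaturases split, since Fads1 and Fads2, which make polyunsaturated fatty acids, fell with log2 differences of -1.94 and -1.22, and Scd1, which makes monounsaturated ones, read 5577, 5661 and 7441 against 15009, 23677 and 12686 (log2 1.42, adjusted p = 0.0011). Me1, a source of NADPH, rose from 4104, 3311 and 3898 to 16687, 16486 and 16227 (log2 difference 2.13, SE 0.10, adjusted p = 6.2e-06).

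Detoxification genes were high. Of 48 cytochrome P450 and conjugation genes 40 were higher and 1 was lower, and together they took 0.861, 0.862 and 0.946% of the WT libraries against 2.07, 2.5 and 2.31%. Cyp3a13 read 3971, 3479 and 4069.6 against 22732, 30183 and 21194 (log2 difference 2.67, SE 0.14, adjusted p = 9.5e-06), and Cyp3a11 read 2014, 1433 and 2256 against 10331, 14874 and 6394 (log2 2.41, adjusted p = 3.2e-04). The aryl hydrocarbon receptor targets Cyp1a1 and Cyp1b1 rose from low levels, Cyp1a1 with 41.2, 11.6 and 31.9 against 496, 216 and 423 (log2 3.78, adjusted p = 4.0e-04) and Cyp1b1 with 14.3, 8.91 and 11.6 against 198, 120.3 and 154 (log2 3.64, adjusted p = 3.5e-05). Antioxidant and NRF2 target genes were higher in 29 of 36. Gclc, which starts glutathione synthesis, read 3433, 2717 and 3846 against 12643, 11640.0 and 12324 (log2 difference 1.89, SE 0.13, adjusted p = 2.1e-05), and Nqo1, a quinone reductase, read 2898, 2614 and 3258 against 6142, 5894 and 6684 (log2 1.10, adjusted p = 8.1e-05). The exception was Akr1c14, which fell from 1467, 1256 and 1599 to 18.2, 31.8 and 17.97 (log2 -5.97, adjusted p = 4.4e-06).

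Cell death genes and p53 targets moved both ways, with more rises. Of 52 cell death genes 33 were higher (63.5%, against 29.9% of all genes) and 10 lower (19.2%, against 29.1%). Mlkl, the effector of necroptosis, read 383, 312 and 396 against 821, 834 and 848 (log2 1.20, adjusted p = 9.6e-05). Protective members moved both ways, with Bcl2 at 318, 318 and 268 against 67.1, 57.7 and 76.4 (log2 -2.16, adjusted p = 3.4e-05) and Bcl2l1 at 839, 856 and 818 against 1829.5, 1758 and 1630.3 (log2 1.05, adjusted p = 3.5e-05). The death ligand gene Tnfsf10 fell from 1012, 912 and 720.2 to 200.2, 299 and 307 (log2 -1.72, adjusted p = 2.2e-04). Gsdmc4, a gasdermin, read 1928, 1179 and 2756 against 9101, 3867 and 15150.3 (log2 2.14, adjusted p = 0.0058), with Mtgr1-/- library 2 the lowest of its group and 39.0% of its 50-base stretches shared with other genes. Among p53 targets 22 of 37 were higher (59.5%) and 6 lower (16.2%). The target Plk3 rose, at 185, 172 and 205 against 679, 642 and 669 (log2 1.82, adjusted p = 1.4e-05). Trp53 itself was lower at 3477, 4026 and 3757 against 2573, 1890.0 and 2607 (log2 -0.68, adjusted p = 0.0029). In the unfolded protein response and chaperone list 11 of 39 were higher (28.2%, against 29.9% of all genes) and 6 lower (15.4%, against 29.1%). With every library set to the same total these numbered 8 and 13. Ern2, the stress sensor of goblet cells, read 423, 376 and 395 against 38.7, 39.8 and 38.2 (log2 difference -3.32, SE 0.14, adjusted p = 4.7e-06), and the main chaperone Hspa5 read 15859.6, 15519 and 17860.2 against 18075, 17785 and 18175 and did not pass (log2 0.14, adjusted p = 0.22). Of 46 proteasome subunit genes, 5 were higher (10.9%) and 3 lower (6.5%), against 29.9% and 29.1% of all genes. With every library set to the same total they numbered 3 and 12. Without WT library 1, WT library 3 or Mtgr1-/- library 3 the higher ones numbered 3.

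Interferon response genes were higher in 37 of 43 tested with a median of 1.55. Oas3, which senses double-stranded RNA, read 17.9, 15.1 and 21.3 against 542, 402 and 757 (log2 difference 4.86, SE 0.25, adjusted p = 9.5e-06). Ifit1 read 31.4, 36.5 and 26.1 against 446, 604 and 915 (log2 difference 4.29, SE 0.26, adjusted p = 1.6e-05), and the regulator Irf7 read 176, 237 and 253 against 1137, 1392 and 1806 (log2 2.69, adjusted p = 3.0e-05). Mtgr1-/- library 3, the one with the most immune marker counts, was the highest for all 3 genes, and libraries 1 and 2 were above every WT library. Without library 3 the count was 36. The fall in the list was Gvin1, at 3591, 3609.8 and 2701 against 0, 0 and 111, whose log2 difference of -9.41 was -8.27 without Mtgr1-/- library 1, -8.27 without Mtgr1-/- library 2 and -11.68 without Mtgr1-/- library 3. Nearly all of its sequence (99.2% of 50-base stretches) is shared with other genes. MHC class I genes rose, with B2m at 6609, 6821 and 6542 against 9809, 14909.9 and 12242 (log2 0.87, adjusted p = 0.0013) and H2-K1 at 10964, 11263 and 11114 against 17203, 24770.3 and 19352 (log2 0.86, adjusted p = 0.001), and over the list 15 of 29 were higher and 4 lower. The class II gene H2-Ab1 read 458, 376 and 185 against 25.03, 109 and 458 and did not pass (log2 -1.54, adjusted p = 0.17), and its difference was -0.50 with an adjusted p of 0.49 without Mtgr1-/- library 1 and -2.57 with an adjusted p of 0.011 without Mtgr1-/- library 3.

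Of cytokine, chemokine and sensor genes 22 of 37 were higher and 8 lower. The alarmin Il33 read 181, 86.4 and 152 against 1355, 1379 and 1094 (log2 difference 3.24, SE 0.25, adjusted p = 4.2e-05) and the flagellin receptor Tlr5 read 5.38, 3.56 and 6.78 against 133, 70.6 and 137 (log2 4.17, adjusted p = 6.6e-05). Ccl20, which draws lymphocytes to the epithelium, read 87.8, 108 and 136 against 349, 366 and 302 (log2 1.63, adjusted p = 2.1e-04), and Ccl28 fell with 1580.1, 1650.4 and 1774 against 461, 459 and 688 (log2 -1.66, adjusted p = 1.0e-04). Il2rb, a chain of the interleukin 2 and 15 receptors, was at 0.9, 3.56 and 0 against 774, 394 and 715, and the T cell marker Cd3e read 0.9, 1.78 and 1.94 against 0, 1.99 and 15.7. The Reg lectins, antimicrobial proteins that epithelium makes under stress, depended on library. Reg3b read 1196, 648 and 1309.7 against 3736, 67826 and 4473, and its log2 difference of 3.37 was 4.11 without Mtgr1-/- library 1, 2.02 without Mtgr1-/- library 2, 3.98 without Mtgr1-/- library 3 and 3.06 with adjusted p = 0.067 without WT library 2. Reg4, a marker of enteroendocrine and deep crypt secretory cells, fell from 4717, 3979 and 3987 to 96.7, 263 and 203 (log2 -4.60, adjusted p = 2.4e-05).

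Ephrin, semaphorin, Slit and netrin guidance genes went both ways, with 14 of 36 higher (38.9%) and 16 lower (44.4%). Of all genes 29.9% were higher and 29.1% lower. The lower genes numbered 13 without WT library 1 and 12 without WT library 2, and in both cases the higher ones were then more. Ephb3, the receptor that holds Paneth cells at the crypt base, read 1272, 1207 and 1189.7 against 445, 281 and 277 (log2 difference -1.90, SE 0.18, adjusted p = 9.4e-05), and its ligand gene Efnb1 was higher at 1521, 1914 and 1878 against 2392, 2763 and 2771 (log2 0.58, adjusted p = 0.0028). Slit2 fell from 363, 329 and 413 to 40.96, 46.7 and 52.8 (log2 -2.95, adjusted p = 1.1e-05) while its relative Slit3 rose, with 0, 0 and 1.94 against 626, 363 and 721. Epha2 read 745, 697 and 727 against 2720.4, 1713 and 2212 (log2 1.59, adjusted p = 1.1e-04).

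Some genes were near 0 in one genotype only. With at most 5 normalised counts in all 3 libraries of one genotype and at least 50 in all 3 of the other, 15 genes were present in the Mtgr1-/- libraries alone and 26 in WT alone. Sall3, a zinc finger factor of limb and nerve development, had no read in any WT library and 918, 564 and 1095 in the Mtgr1-/- libraries, which is at least 312-fold higher with the same floor. Tfap2a, a factor of neural crest and skin, read 3.59, 2.67 and 1.94 against 595, 287 and 554 (log2 6.96, adjusted p = 7.0e-06). Kif26a read 0.9, 1.78 and 1.94 against 369, 205 and 294 (log2 6.82, adjusted p = 7.0e-06), Tmprss6, a liver protease, read 0, 0 and 0.97 against 205, 82.5 and 181, and Efemp1, a matrix protein, read 1.79, 0.89 and 4.84 against 158, 199 and 158. In the other direction, Cyyr1 read 233, 210.2 and 144 against 2.28, 3.98 and 3.37 (log2 -5.54, adjusted p = 1.0e-05), Fras1, a matrix protein of the basement membrane zone, read 112, 86.4 and 135 against 1.14, 1.99 and 1.12, and Adgrd1, an adhesion receptor, read 204, 184 and 82.3 against 2.28, 0.99 and 1.12. Rpl34-ps1, a processed pseudogene, read 1580.1, 1672 and 1733 against 0, 0 and 6.74, and all of its 50-base stretches occur in other genes. Pla2g2a, annotated as a polymorphic pseudogene, was not even among the WT libraries, with WT library 3 far above the other two, at 451, 399 and 8585 against 7.96, 24.9 and 16.8.

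Around the targeted gene the density of changes was that of the genome. Of 113 tested genes within 5 Mb of Cbfa2t2, 33 were higher and 33 lower (58.4%), against 59.0% of all genes. Ahcy, which clears S-adenosylhomocysteine, was among them and fell from 8453, 9509 and 9963 to 2018, 1613 and 1923 (log2 difference -2.33, SE 0.11, adjusted p = 6.5e-06). Procr, a protein C receptor found on some stem cells, rose from 6.27, 2.67 and 2.90 to 58.03, 51.7 and 53.9 (log2 3.56, adjusted p = 1.5e-04).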

How the data were processed

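RNA was measured in 6 day 3 enteroid libraries, 1 per mouse, made with a stranded mRNA kit and sequenced as 50-base single reads. The authors trimmed reads with fastp 0.20.0, quantified them with Salmon 1.3.0 against GENCODE transcripts and scaled them with DESeq2 1.26.0, and the values they deposited are a signal per gene, counts divided by 1 size factor per library within the day 3 table. The deposited columns of the authors' own comparison were not used. All values in the 6 libraries were whole multiples of 1 step per library (100%, tolerance 0.02 of a step), so that read counts were recovered for alternative tests. All 17612 gene IDs matched GENCODE M21 (GRCm38).

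The test was limma 3.58.1 on log2(value + 1) over genes whose mean reached 10 (lmFit and eBayes with a trend, 2-sided, R 4.3.3) and Benjamini-Hochberg adjustment over 12782 genes at 0.05. Log2 differences are on that scale and understate changes of low genes. The limma step was tested on simulated data. With 3 libraries against 3, an exact permutation test of a single gene cannot go below p = 0.1, so none is given. Genes were assigned to 54 lists, and the members and lists were chosen with earlier results of these data known. Named genes are the targeted gene, the anchors of each list, up to 4 of the largest rises and falls in each list and 10 overall with a mean of at least 50, up to 10 genes near 0 in one genotype in each direction, and up to 4 neighbours of Cbfa2t2. Other settings included edgeR 4.0.16 and DESeq2 1.42.0 on recovered reads. A few genes that the rule names are not reported here.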

Additional observations from a re-analysis of the deposited data

How the results depend on the processing

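The number of genes past the threshold was 7545 and ranged from 6109 to 7699 with 1 library left out and from 7108 to 9198 over the other settings, which were pseudocounts of 0.1 and 8, no filter, at least 10 normalised counts in every library of one genotype, 3 other scalings, no trend, array weights, Xist as a covariate, and edgeR and DESeq2 on recovered reads. Of the main calls 7466 were also called by edgeR and 7409 by DESeq2, all in the same direction. Replicate numbers are not stated to pair mice across genotypes. Deviations of same-numbered libraries correlated at -0.0067, -0.0023 and -0.016, which cannot show whether litters or culture days were shared. The fit with a replicate block called 7289 genes and changed no call of a named gene. Without the reads of Mtgr1-/- library 2, a setting chosen after seeing the data, edgeR called 7242 genes.

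With 1 library left out, the lower MTG partners numbered 7 to 11, the lower mitochondrial ribosomal genes 12 to 21, the higher oxidative phosphorylation genes 7 to 42, the higher glycolysis genes 9 to 15, the higher proteasome genes 3 to 6 and the lower guidance genes 12 to 16. With every library set to the same total, 49 mitochondrial ribosomal genes were lower, and 5 oxidative phosphorylation, 13 citric acid cycle, 9 glycolysis, 8 unfolded protein response, 3 proteasome and 15 junction genes were higher. After quantile normalisation 7 oxidative phosphorylation, 8 glycolysis, 11 cholesterol and fatty acid synthesis, 11 unfolded protein response and 5 proteasome genes were higher, and with array weights 48 oxidative phosphorylation, 25 synthesis, 17 unfolded protein response and 9 proteasome genes. The causes were not tested.

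Genes that changed sign were below the test threshold under the main settings. Cbfa2t2 ranged from -0.024 to 0.15 with 1 library left out and was -0.15 with equal totals, -0.11 with array weights and -0.030 by edgeR without Mtgr1-/- library 2. Slc11a2 ranged from -0.059 to 0.31 with 1 library left out and was -0.10 after quantile normalisation and -0.086 with equal totals. Under these scalings Cdx2 was -0.083 and -0.072, Hnf4a -0.17 and -0.096, and Hspa5 -0.10 and -0.064. With 1 library left out Cftr ranged from -0.15 to 0.0010, Itga6 from -0.080 to 0.012 and Ptprc from -1.16 to 1.28. Cftr was 0.069 with array weights, where H2-Ab1 was 0.29. Itga6 was 0.0028 by edgeR without Mtgr1-/- library 2. Depth limits values near 0, where 1 read moves a log2 difference most.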

Other observations

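A few genes with no read in any WT library had reads in the Mtgr1-/- libraries, and they were picked after their values were seen. The neutrophil gene S100a8 read 42.1, 29.8 and 19.1 in Mtgr1-/- libraries 1, 2 and 3. Tyrobp, a signalling adaptor of myeloid and natural killer cells, read 0, 4.97 and 64.0, and Cpa3, a mast cell protease, read 0, 2.98 and 60.6, so that nearly all of their reads lay in Mtgr1-/- library 3. Mt4, a metallothionein of stratified epithelium, was low in WT with 8.07, 5.34 and 5.81 and read 526, 502 and 377 in the Mtgr1-/- libraries (log2 difference 5.99, SE 0.23, adjusted p = 4.4e-06 by limma). Cps1, which makes carbamoyl phosphate for the urea and citrulline pathways in the small intestine, fell from 87051, 81905 and 82072 to 34064, 25629 and 47055 (log2 difference -1.28, adjusted p = 0.0013 by limma).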
